A study of Macaca mulatta with 24 samples.

Results

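The effect of a Western-style diet (WSD) on DNA methylation of visceral fat was measured in female rhesus macaques that carried no testosterone implant. The 12 animals compared were the 6 labelled C (animals 1 to 6) and the 6 labelled WSD (animals 19 to 24), out of 24 animals in the series. They were chosen by their labels alone, and all 841143 CpGs of the deposited table entered the comparison. Both groups had cholesterol implants, the control for the testosterone implants of the other animals, for 3 years. C animals ate monkey chow and WSD animals a high-fat diet. The remaining groups had testosterone implants, on chow (T, animals 13 to 18) or on the high-fat diet (T+WSD, animals 7 to 12). The labels give an age of 4 years for every animal, which differs from the age at biopsy in the methods of the study. According to those methods, the animals were picked from a larger experiment as representatives of their groups, which limits how far they stand for all animals on each diet.

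C and WSD animals come from different ends of the animal numbering. C lies in the series 1 to 12 and WSD in the series 13 to 24, so diet and number series are fully confounded in this comparison and cannot be told apart. Between C and WSD no series term can be fitted, since each series holds only 1 of the 2 groups. Over all 4 groups such a term takes the place of the interaction of diet and testosterone, and it leaves only a diet effect averaged over both implants. The labels do not say what the numbers stand for. One other contrast of the design bears on this as a description. T+WSD minus T compares the same diets in animals with testosterone implants and shares no animal with WSD minus C. It has its series the other way round, with the high-fat diet in animals 7 to 12. A feature that differs by series would therefore change sign between both contrasts, and so would a feature whose diet response is reversed by testosterone.

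Methylation of the cytosine in a CpG is written and kept by DNA methyltransferases and removed through TET enzymes. CpG-dense stretches, such as CpG islands at gene starts, are mostly unmethylated in normal tissue, while isolated CpGs are mostly methylated. CpGs of middle level are those at which alleles, cells or cell types differ, and in adipose tissue the biopsy holds adipocytes, stromal and endothelial cells, macrophages and mesothelium. In bulk tissue a shift in methylation within a cell type and a shift in the mixture of cells cannot be told apart. The assay was reduced-representation bisulfite sequencing (RRBS), which reads DNA cut at CCGG sites and so oversamples CpG-rich sequence. Each value gives, for a CpG in an animal, the methylated reads as a percentage of its reads, and differences are given in percentage points (points).

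A value was present at 767744 to 826713 CpGs in the C animals and at 791221 to 816251 in the WSD animals. The number of reads per CpG is unknown here, beyond the authors' minimum of 10 reads in at least 4 animals of each group. Means per animal used the 475736 CpGs on chromosomes 1 to 20 and X with a value in all 24 animals. Averaged over these, C animals stood at 45.7% ± 0.356 (SD, n = 6) and WSD animals at 45.4% ± 0.664 (n = 6), and the groups overlapped. The difference of −0.251 points (exact permutation p = 0.485) was −0.0106 points without WSD 22. It was −0.591 points (exact permutation p = 0.223) when every CpG with a value in an animal was averaged, so that the animals cover different CpGs. Coordinates refer to the rheMac8 build, and no annotation of that build was used, so that no gene, exon or intron is named and the tissue was not checked against promoters of marker genes.

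The difference was first divided by methylation level, with each CpG placed in a class by its mean over the 12 animals. WSD animals were slightly higher at the bottom of the scale and lower above 20%, and no class passed the correction for 5 classes. At CpGs under 5%, C animals had a mean of 1.03% to 1.29% (median 1.06%) and WSD animals 1.14% to 1.64% (median 1.23%). The C animals other than C 1 all lay below every WSD animal. The difference was 0.196 points (two-sided exact permutation p = 0.0346, adjusted p = 0.173). Leaving out C 1 gave 0.235 points, and this class then passed (exact permutation adjusted p = 0.0433). Leaving out any of the other 11 animals did not (exact permutation adjusted p from 0.108 to 0.303), and without WSD 20 the difference was 0.125 points. Bisulfite conversion of each animal was not examined, so its part in a difference this near the floor of the scale was not tested. At CpGs from 20% to 80%, C ranged from 54.2% to 55.97% (median 54.7%) and WSD from 50.7% to 55.5% (median 54.8%). The mean difference was −0.842 points (exact permutation p = 0.366, adjusted p = 0.519), and the medians were ordered the other way. Without WSD 22, the lowest animal, it was −0.163 points. CpGs from 80% to 95% gave −0.700 points (exact permutation p = 0.115, adjusted p = 0.287), with C from 88.99% to 90.8% and WSD from 87.7% to 89.5%, and were at −0.459 points without C 1 and −0.455 points without WSD 22. The classes from 5% to 20% and over 95% differed by 0.338 and −0.106 points (exact permutation adjusted p = 0.576 and 0.519), and their groups overlapped. The latter was −0.0362 points without C 1 and −0.0551 points without WSD 22, and the former −0.0638 points without WSD 20.

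**Figure D1:**
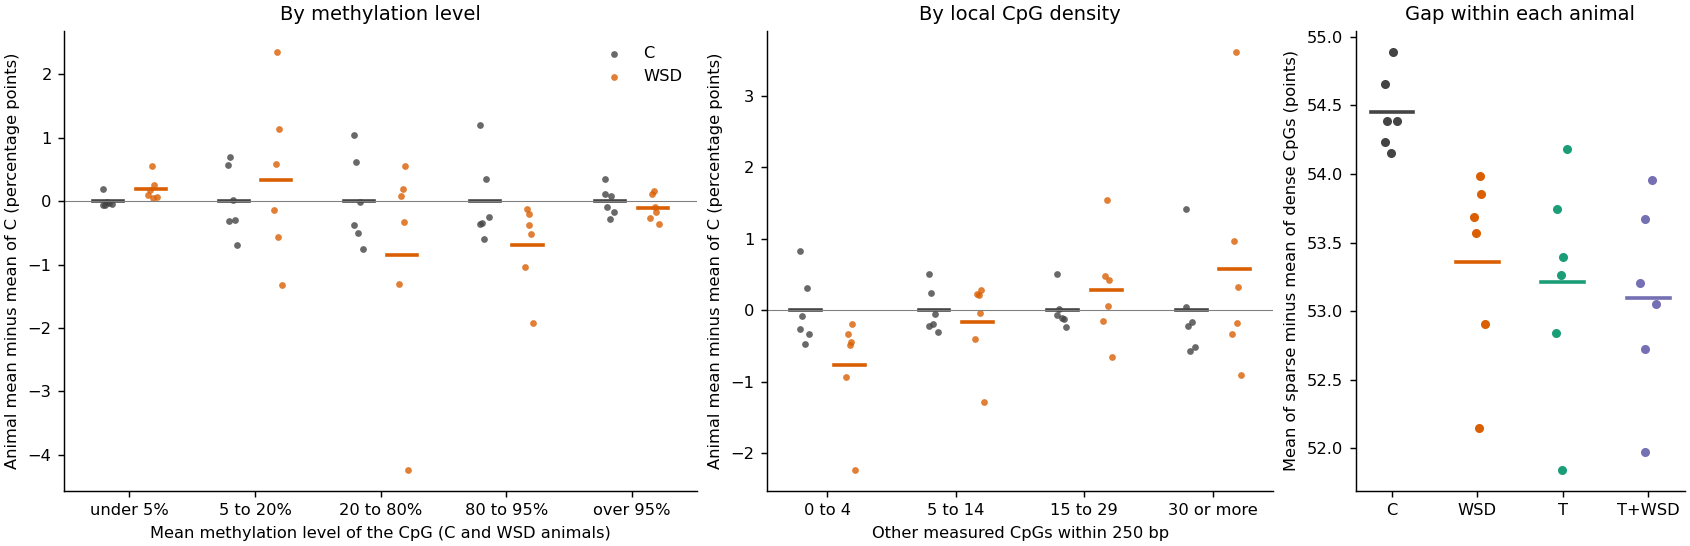
The left and middle panels plot each animal's mean methylation minus the mean of C, in percentage points, for CpGs divided by level and by the number of other measured CpGs within 250 bp, with a bar at the mean of each group. The right panel plots, in all 24 animals, the mean of sparse CpGs (0 to 4 neighbours) minus that of dense CpGs (15 or more). The 6 C animals lie from 54.2 to 54.9 points in that panel and the 6 WSD animals from 52.2 to 53.98, while the T and T+WSD animals also lie mostly below C.

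Local CpG density was counted as the number of other measured CpGs within 250 bp. Sparse CpGs were highly methylated and dense CpGs mostly unmethylated in both groups. The difference between the diets ran from negative in sparse to positive in dense sequence. At CpGs with 0 to 4 neighbours, C animals lay at 68.2% to 69.5% (median 68.5%) and WSD animals at 66.4% to 68.5% (median 68.2%). The difference was −0.768 points (two-sided exact permutation p = 0.0390), which did not pass the correction over 4 classes (adjusted p = 0.156). Without WSD 22 it was −0.476 points (exact permutation p = 0.0887), and without C 1 −0.601 points (exact permutation p = 0.106). With 5 to 14 neighbours it was −0.164 points (exact permutation adjusted p = 0.632), and −0.462 points over every CpG with a value in an animal (exact permutation adjusted p = 0.560). CpGs with 15 to 29 neighbours stood at 14.6% ± 0.260 (SD, n = 6) in C and 14.9% ± 0.740 (n = 6) in WSD, and those with 30 or more at 11.7% ± 0.730 and 12.3% ± 1.61. The differences were 0.283 and 0.580 points, and the groups overlapped in both classes (exact permutation adjusted p = 0.632 for each). WSD 20 was the highest animal in both classes, and without it the differences were 0.0325 and −0.0249 points. Without WSD 22 that at 15 to 29 neighbours was 0.470 points.

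Because single animals were high or low in several classes at once, the contrast of sparse with dense CpGs was also taken within each animal. This measure was chosen after the class means were seen, so it is given as a description with no test. Sparse CpGs exceeded dense ones by 54.2 to 54.9 points in C (median 54.4) and by 52.2 to 53.98 points in WSD (median 53.6). No WSD animal reached the lowest C animal. The mean gap was 54.5 ± 0.275 points (SD, n = 6) in C and 53.4 ± 0.700 points (n = 6) in WSD, a difference of −1.09 points. T animals ranged from 51.8 to 54.2 points (median 53.3) and T+WSD animals from 51.98 to 53.95 points (median 53.1). T+WSD minus T was −0.114 points, a value whose sign rests on single animals. The lowest were T 13 at 51.8 points and T+WSD 8 at 51.98 points. C had the widest mean gap of the 4 groups, and its range overlapped that of T.

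Level and density were then combined in 20 classes, none of which passed (smallest exact permutation adjusted p = 0.108). Among these classes the smallest p were found at CpGs under 5% outside dense sequence. Under 5% with 0 to 4 neighbours, C animals had 1.57% to 1.71% and WSD animals 1.67% to 1.93%, a difference of 0.173 points (exact permutation p = 0.0108). Under 5% with 5 to 14 neighbours the difference was 0.193 points (exact permutation p = 0.00866). At the same level it was 0.203 points with 15 to 29 neighbours and 0.212 points with 30 or more (exact permutation p = 0.0779 and 0.457). Without WSD 20 these last values were 0.101 and 0.00926 points. The largest difference at sparse CpGs was in the class from 20% to 80%, with −1.45 points (exact permutation p = 0.0238, adjusted p = 0.159). There C animals had 57.3% to 58.9% (median 57.8%) and WSD animals 53.5% to 57.8% (median 56.9%), and 58.1% of the 49996 CpGs were lower in WSD. Without WSD 22 this difference was −0.871 points (exact permutation p = 0.0455), and p was up to 0.0628 when other animals were left out. The same level class in dense sequence differed by 0.840 points at 15 to 29 neighbours and 2.61 points at 30 or more (exact permutation adjusted p = 0.782 for each). Both rested on WSD 20, without which they were −0.113 and 0.507 points, and without WSD 22 they were 1.97 and 4.30 points.

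Single CpGs were tested with limma on arcsine-transformed rates. An unadjusted p under 0.05 was found at 52792 CpGs, or 6.28%, of which 24705 (2.94%) were higher and 28087 (3.34%) lower in WSD. Their direction varied with level and density. These shares rest on largely the same values as the class means and are no separate support. Under 5%, 63.7% of these CpGs were higher in WSD, and from 5% to 20% 53.6% were. From 20% to 80% the share was 38.2%, and from 80% to 95% it was also 38.2%. Over 95%, 55.1% were higher in WSD, although the mean of that class was lower. By density, 39.7% were higher in WSD at 0 to 4 neighbours, 49.8% at 5 to 14, 58.9% at 15 to 29 and 63.8% at 30 or more. Among the level classes, CpGs of middle level passed most often, at 9.46%, and those under 5% least, at 4.21%. A difference over 10 points in addition left 23846 CpGs (2.83%), 9352 (1.11%) higher and 14494 (1.72%) lower. C and WSD animals did not overlap at 3222 CpGs (0.383%), 1302 (0.155%) higher and 1920 (0.228%) lower in WSD.

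**Figure D2:**
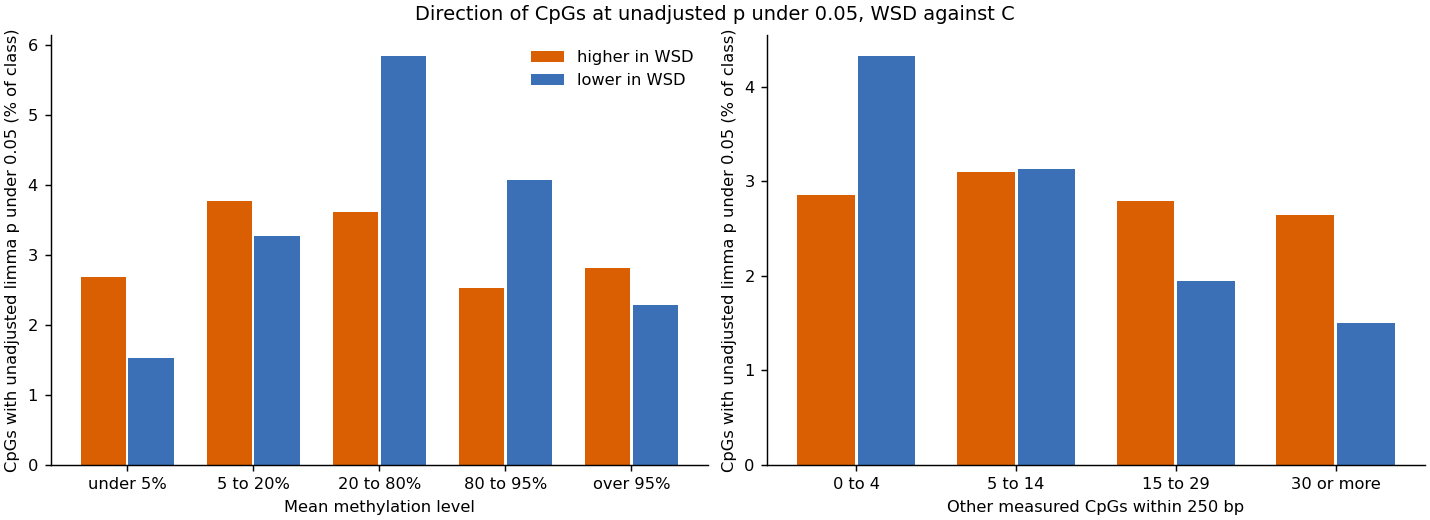
Bars give the CpGs with an unadjusted limma p under 0.05 as a percentage of all CpGs of a class, those higher in WSD beside those lower in WSD, by methylation level (left) and by other measured CpGs within 250 bp (right). Lower CpGs outnumber higher ones from 20% to 95% and in sparse sequence, and higher CpGs outnumber lower ones under 20%, over 95% and in dense sequence.

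Mean methylation was lower in WSD on each of the 21 chromosomes, but C and WSD animals overlapped on each and none passed the correction. The differences ran from −0.0682 points on chromosome 19 to −0.480 points on chromosome 10, with exact permutation adjusted p from 0.719 to 0.864. Over every CpG with a value in an animal they ran from −0.370 points on chromosome 18 to −0.781 points on chromosome 10, with −0.381 points on chromosome 19 (exact permutation adjusted p from 0.423 to 0.738). The 21 values are not independent, because 1 animal shifted most of them. WSD 22 was the lowest WSD animal on the autosomes and on X, and without it 9 chromosomes turned positive, up to 0.179 points on chromosome 19. On chromosome 10, C animals had 49.4% to 50.7% (median 49.7%) and WSD animals 47.99% to 49.96% (median 49.6%), and the difference was −0.209 points without WSD 22 and −0.310 points without C 1. The X chromosome had the widest spread in WSD, 53.4% ± 1.53 (SD, n = 6) against 53.8% ± 0.685 (n = 6) in C. At single CpGs the share with an unadjusted p under 0.05 lay between 5.70% on chromosome 2 and 6.596% on chromosome 16.

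**Figure D3:**
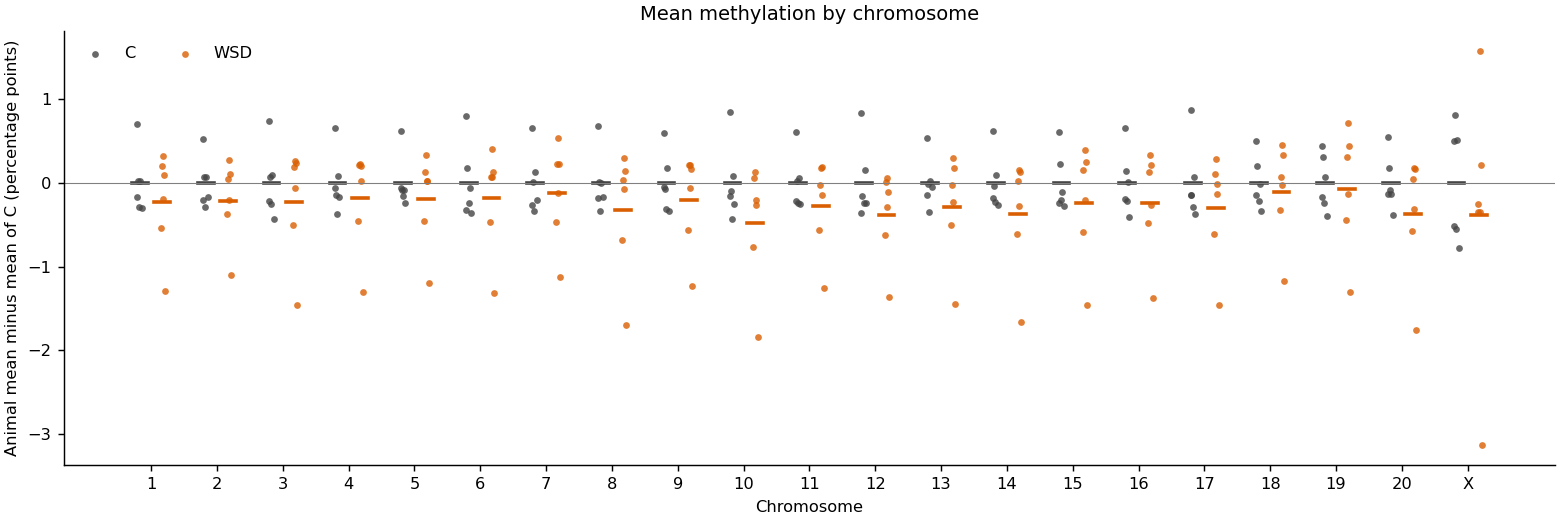
Each point is 1 animal's mean methylation of a chromosome minus the mean of the 6 C animals, in percentage points, for C (grey) and WSD (orange), with a bar at each group mean. All WSD means lie below 0, by 0.480 points at most, and 1 WSD animal lies below all others on every chromosome.

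The animals were also compared by how many of their CpGs were neither fully methylated nor fully unmethylated. CpGs from 5% to 95% made up 46.7% to 49.5% of all CpGs in C (median 47.8%) and 48.3% to 49.9% in WSD (median 49.1%). The difference was 1.15 points (two-sided exact permutation p = 0.0476), and 8 of the 12 comparisons that leave out an animal brought p to between 0.0584 and 0.0974. It was split over CpGs under 5%, with −0.597 points (exact permutation p = 0.132), and CpGs over 95%, with −0.549 points (exact permutation p = 0.422). Both values lean on single animals. WSD 20 had the lowest share under 5% in WSD (33.8%), and C 1 the highest share over 95% in C (18.2%). For CpGs from 5% to 95%, T was at 47.9% and T+WSD at 50.1%. The mean of T includes T 16 at 42.3%, the animal with most missing values. Scatter of an animal around its group's profile, over 100653 CpGs of middle level, was 8.31 ± 0.957 points (SD, n = 6) in C and 8.52 ± 0.563 points (n = 6) in WSD (exact permutation p = 0.652).

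At single CpGs 47 differentially methylated CpGs (DMCs) passed, defined by a Benjamini-Hochberg adjusted limma p under 0.05 and a difference over 10 points. They were 0.00559% of CpGs tested. Methylation was higher in WSD at 5 (0.000594%) and lower at 42 (0.00499%), with a median difference of −33.5 points. Fitting the C and WSD animals alone gave 49 DMCs with 16 higher. In the fit of all animals, 18 of 63 were higher without WSD 23, 13 of 49 without WSD 22 and 11 of 66 without WSD 24, so losses were in the majority each time but their share varied. Most DMCs, 38 of 47, had a middle level from 20% to 80%, a class that holds 21.4% of all CpGs and can most readily change by over 10 points. By density 22 had 0 to 4 neighbours (46.8%, against 38.6% of all CpGs), 19 had 5 to 14 (40.4%, against 41.0%) and 6 had 15 to 29 (12.8%, against 17.7%), shares near those of all CpGs. On unplaced scaffolds lay 8 of the 47, against 23780 of 841143 CpGs. They were on 5 scaffolds, since 3 of them are close together on one and 2 on another, and the other 39 were spread over 17 chromosomes with at most 4 on any of them.

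The 4 lost DMCs with the largest differences outside regions had medians of over 70% in C and of at most 15.03% in WSD. On chromosome 4 at 45310582, C animals had 65.9% to 84.8% (median 72.9%), and the 4 WSD animals with a value had 0% to 7.14% (median 0%). On chromosome 11 at 130760594, C had 63.8% to 80.5% (median 71.3%) and WSD 0% to 20% (median 3.12%). The groups are far apart at both CpGs. On chromosome 15 at 2945858, C had 65.5% to 81.8% (median 71.9%) and 5 WSD animals 0% to 28.6% (median 7.14%). On chromosome 8 at 22499137, C had 67.5% to 84.6% (median 72.1%) and 4 WSD animals 8.33% to 30% (median 15.03%). These 4 CpGs had a fixed order over the whole series. T animals lay at 0% to 26.3% and T+WSD animals at 46.3% to 77.8%, so that at each of them animals 1 to 12 lay above all of animals 13 to 24. Adjusted limma p of WSD against C was between 3.93e-06 and 0.0367 here.

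Of the 5 gained DMCs the 4 with the largest differences are described, and 2 of these parted the same animals, with animals 13 to 24 on the higher side. On chromosome X at 67570373, C had 21.1% to 47.2% (median 32.4%) and WSD 59.2% to 80.9% (median 73.4%), with T at 66.0% to 85.7% and T+WSD at 16.7% to 55.6%. On an unplaced scaffold, C had 39.2% to 50% (median 46.4%) and WSD 61.3% to 68.6% (median 66.2%), with T at 58.2% to 64.98% and T+WSD at 36.2% to 48.3%. The other two did not follow the number series. On chromosome 13 at 24426683, C had 34.5% to 47.4% (median 42.5%) and 5 WSD animals 61.5% to 68.8% (median 64.3%). There T had 50% to 55.6% and T+WSD 59.1% to 80.95%, so that the high-fat diet went with higher values under both implants. On chromosome 16 at 18349990, the 6 C and 6 T animals were all at 0%, the WSD animals were at 3.33% to 28.0% (median 7.79%), and 1 of the 6 T+WSD animals was above 0, at 3.70%. This last CpG was raised in every WSD animal and its 5 measured neighbours within 100 bp were higher in WSD too, by a median of 12.8 points. The fifth gained DMC lies next to that on the scaffold, with C at 59.8% to 68.03% and WSD at 71.3% to 78.4%, and T+WSD minus T was −7.99 points.

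Over all 47 DMCs the median level was high in C (67.2%) and T+WSD (61.7%) and low in WSD (21.1%) and T (19.6%). T+WSD minus T had the opposite sign to WSD minus C at 42 DMCs and the same sign at 5, and 39 of the 42 had an unadjusted limma p under 0.05 for T+WSD against T, against 6.68% of all CpGs. By the interaction term, which contains the contrast that chose the DMCs, 40 of the 47 differed in their diet effect between implant types (limma adjusted p under 0.05, found at 0.0181% of all CpGs). Within 100 bp of 46 DMCs lay 182 other CpGs, a sum over DMCs in which a CpG near several DMCs counts several times. Of these 74.2% differed in the direction of their DMC. The median difference of the neighbours was taken for each DMC, and the median of these values was −7.68 points. The same share around all CpGs was not computed. DMCs were chosen for a large difference and their neighbours were not, so nothing is read from the smaller values.

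Neighbouring CpGs were next combined into differentially methylated regions (DMRs), following the comb-p procedure of the study, keeping those over 10 points whose Sidak-corrected p was below 0.1. WSD and C differed in 54 DMRs, of which 21 gained and 33 lost methylation in WSD. The number depends on the scale on which correlation between neighbours is estimated, which was settled only after all 3 had been run. It was 54 on −log10 p, 69 on untransformed p and 13 on normal scores, with losses in the majority each time (33, 42 and 9). Fitting C and WSD alone gave 30 DMRs with 15 gains, and leaving out WSD 22 gave 34 with 21 gains. Gains also outnumbered losses without C 2 (36 of 66) and without C 3 (23 of 43), so the excess of losses rests on the animals and the fit used. The 54 DMRs held 451 CpGs, 0.0536% of those tested, with a median of 6 CpGs and 177 bp. CpGs from 20% to 80% made up 76.1% of them, against 21.4% of all CpGs, which follows in part from the required difference. By density, 19.7% had 0 to 4 neighbours (38.6% of all CpGs), 51.0% had 5 to 14 (41.0%) and 26.6% had 15 to 29 (17.7%). Of the 89 sparse CpGs in DMRs 63 were lower in WSD. Of those with 5 to 14 neighbours 125 of 230 were lower, and of those with 15 to 29 neighbours 64 of 120. The 12 with 30 or more neighbours were higher in WSD. CpGs of the same region are not separate observations, so these counts are a description only. The DMR with the highest median density, 29 neighbours, was a gain on chromosome 10 from 62244003. Its C animals had 12.6% to 17.7% and its WSD animals 14.7% to 45.9%, with overlap. Among the 159786 sparse CpGs used for the means per animal, 55.1% were lower in WSD. DMRs lay on 20 chromosomes, at most 5 on any of them, and none on unplaced scaffolds. Chromosomes 7, 8 and 19, with 5 each, hold 48598, 31840 and 62025 of the 841143 CpGs. Counts by chromosome were not tested against these shares.

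The region means of the C and WSD animals did not overlap in 29 of the 54 DMRs, against 0.561% of 1 kb tiles, and this contrast chose the DMRs. Of these 28 had at least 3 CpGs and are described here, with 11 gains and 17 losses. The largest gain was on chromosome 14 from 111853061 to 111853130 (6 CpGs). C animals had 8.59% to 26.6% (median 13.3%) and WSD animals 35.6% to 71.8% (median 61.2%), a difference of 40.2 points. The WSD animals spread widely there, with 2 of 6 under 40%. T animals filled the range from 16.7% to 64.3%, and 5 T+WSD animals had 10.07% to 36.3%, so the region was not high in both groups on the high-fat diet.

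The next 4 gains had a higher mean in T+WSD than in T as well, and T and T+WSD animals overlapped in each. On chromosome 16 from 47315329 to 47315395 (3 CpGs), 4 C animals had 30.3% to 58.2% (median 43.3%) and 6 WSD animals 70.95% to 88.2% (median 75.8%). T was at 66.9% ± 10.1 (SD, n = 6) and T+WSD at 80.02% ± 6.21 (n = 4). On chromosome 2 from 172278767 to 172278796 (3 CpGs), C animals had 9.08% to 22.2% (median 18.9%) and 4 WSD animals 35.1% to 64.1% (median 43.4%), with T at 34.3% ± 5.66 (n = 4) and T+WSD at 45.8% ± 9.37 (n = 6). T+WSD against T did not pass in either (unadjusted exact permutation p = 0.0619 and 0.0667). Both regions lacked a value in 4 of the 24 animals. Both other gains lie on chromosome 4 and had values in every animal. From 172513136 to 172513355 (7 CpGs), C had 35.4% to 60.6% (median 49.4%) and WSD 62.7% to 82.8% (median 74.9%), and T+WSD exceeded T by 13.03 points (unadjusted exact permutation p = 0.0281). From 171431540 to 171431582 (6 CpGs), C had 30.2% to 40.6% (median 35.8%) and WSD 47.01% to 73.4% (median 61.7%), and T+WSD exceeded T by 11.2 points (unadjusted exact permutation p = 0.0130). In these 4 regions the mean of C was lowest, that of T next, and those of both groups on the high-fat diet highest. The 6 remaining gains ranged from 12.98 to 19.6 points and held 4 to 27 CpGs.

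A loss of −41.6 points on chromosome 1 from 187674202 held only 2 CpGs. Among losses with at least 3 CpGs the largest difference was on chromosome 17 from 29478329 to 29478648 (13 CpGs). C animals had 41.2% to 82.98% (median 56.3%) and WSD animals 2.20% to 27.8% (median 22.1%), a difference of −38.8 points. T was at 17.7% ± 12.8 (SD, n = 6) and T+WSD at 47.96% ± 5.52 (n = 6), and 9.62% of the values of C and WSD were missing. On chromosome 8 from 51154952 to 51154979 (3 CpGs), C had 78.98% to 93.2% (median 88.5%) and WSD 41.7% to 63.8% (median 51.5%), with T at 54.2% ± 8.18 and T+WSD at 80.3% ± 4.73. On chromosome 4 from 37257201 to 37257373 (5 CpGs), C had 48.1% to 65.03% (median 54.01%) and WSD 14.1% to 47.7% (median 33.7%), with T at 27.6% ± 3.65 and T+WSD at 49.5% ± 4.72. These 3 regions were low in T and WSD and high in C and T+WSD, with every T+WSD animal above every T animal, a lack of overlap that 0.499% of all CpGs showed.

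A second pattern among losses was a lower mean on the high-fat diet under both implants. On chromosome 19 from 554626 to 554690 (6 CpGs), 5 C animals had 44.6% to 81.7% (median 58.3%) and 5 WSD animals 12.6% to 43.3% (median 15.8%), with T at 46.3% ± 11.4 (SD, n = 4) and T+WSD at 26.4% ± 14.3 (n = 5). On chromosome 3 from 57838568 to 57838620 (3 CpGs), C had 63.2% to 83.3% (median 74.2%) and WSD 39.4% to 60.95% (median 43.7%), with T at 63.07% ± 9.68 (n = 6) and T+WSD at 43.5% ± 8.61 (n = 6). WSD 24 was the highest WSD animal at the latter, and the other 5 had at most 45.4%. In both regions the diet difference was close to 20 points under testosterone, −19.9 on chromosome 19, which did not pass (unadjusted exact permutation p = 0.0714), and −19.6 on chromosome 3 (unadjusted exact permutation p = 0.00433).

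In the last 2 of the 7 largest losses T and T+WSD had nearly the same mean, below that of C. On chromosome 8 from 22553287 to 22553429 (6 CpGs), C had 65.7% to 76.8% (median 70.6%) and WSD 27.8% to 56.2% (median 43.3%), and T and T+WSD were at 53.3% ± 11.1 and 53.8% ± 12.3 (SD, n = 6). Single animals of both groups, T 18 at 71.4% and T+WSD 12 at 66.4%, lay within the range of C. On chromosome 13 from 87551731 to 87551952 (6 CpGs), C animals were within 55.99% to 58.8% (median 56.9%) and WSD animals at 23.2% to 41.8% (median 35.8%), and T and T+WSD were at 43.3% ± 4.24 and 43.2% ± 11.3. C varied less at the second region than at any other described here, with an SD of 1.12 points, and differences between T+WSD and T were 0.570 and −0.162 points. The 10 remaining losses ranged from −10.7 to −22.5 points. One of them, on chromosome 19 from 45316411 to 45316481 (7 CpGs), had a mean of 29.3% ± 6.52 for C animals and 13.1% ± 4.07 for WSD animals (SD, n = 6). T was at 11.4% ± 3.39 and T+WSD at 54.3% ± 7.44 there, and their difference of 42.9 points exceeded that between C and WSD.

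**Figure D4:**
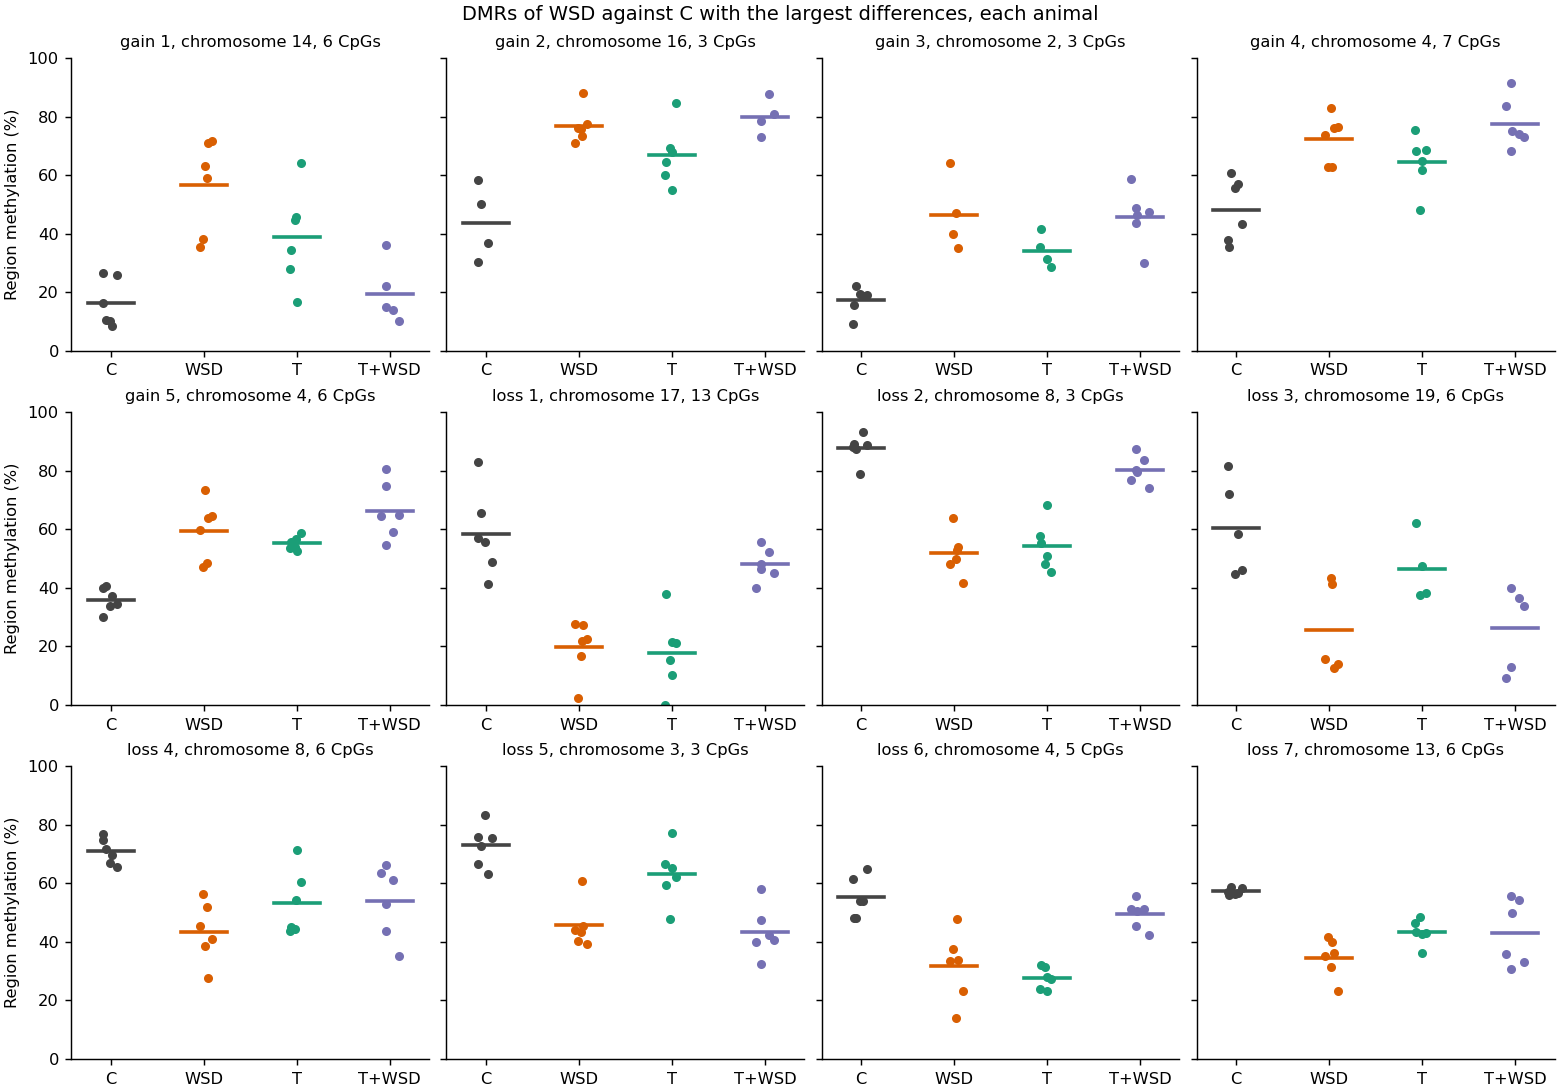
Region methylation, in percent, of each animal in the 4 groups for the 5 largest gains and the 7 largest losses of WSD against C among regions without overlap, with a bar at each group mean. WSD (orange) lies apart from C (grey) in each panel by the choice of regions, while T+WSD (purple) lies beside WSD in some panels and beside C in others.

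Tiles of 1 kb gave a regional test with no model of correlation between neighbours. Of 100864 tiles with at least 3 CpGs, 4 passed (0.00397%), all of them lower in WSD. Only 1 passed when C and WSD animals alone were fitted, and 1 when a tile needed at least 5 CpGs. At an unadjusted p under 0.05 there were 2821 higher (2.8%) and 4687 lower (4.65%) tiles, 7.44% in all. On chromosome 8 from 51154001 to 51155000 the tile held the same 3 CpGs as the DMR described above, with −35.9 points (limma adjusted p = 5.78e-05). On chromosome 3 from 34361001 to 34362000 (4 CpGs), C had 26.9% to 37.6% (median 33.2%) and WSD 4.89% to 14.9% (median 11.1%), with T at 12.3% ± 5.54 (SD, n = 6) and T+WSD at 31.6% ± 4.89 (n = 6) (limma adjusted p = 0.00657). On an unplaced scaffold (6 CpGs), C had 83.1% to 87.6% (median 83.8%) and WSD 70.1% to 76.6% (median 74.03%), with T at 72.7% ± 2.40 and T+WSD at 79.9% ± 2.01 (limma adjusted p = 0.0153). The tiles on chromosome 8, on chromosome 3 and on the scaffold each held a DMC. The fourth tile, on chromosome 1 from 16878001 to 16879000, held the same 3 CpGs as a DMR from 16878704 to 16878911. The tiles therefore repeat called DMCs and DMRs and are no separate support. The tile on chromosome 1 was the only one of these lower on the high-fat diet under both implants. C had 62.1% to 68.1% (median 65.1%) and WSD 31.3% to 54.9% (median 43.2%), with T at 58.5% ± 2.59 and T+WSD at 42.4% ± 6.55 (limma adjusted p = 0.0267), and the T and T+WSD animals did not overlap either. The tile count was 2 without C 1, without C 4 or without WSD 22, and 9 without WSD 24.

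The diet difference under testosterone was then set beside that without it over each kind of feature. DMRs and DMCs gave opposite pictures. T+WSD minus T had the sign of WSD minus C in 42 of 54 DMRs, 17 of 21 gains and 25 of 33 losses, and in 5 of 47 DMCs. Over all tiles the sign was the same in 53.9%, and over all CpGs in 52.2%. Percentages of the same sign over tiles and CpGs leave out those with a difference of 0 in either contrast. The 6 DMRs that held a DMC had the opposite sign in 5, and the 48 without one had the same sign in 41. The size of the difference also parted them. Of the 10 DMRs with over 25 points, 5 had the same sign, against 37 of the 44 smaller ones. The median of T+WSD minus T along the direction of WSD minus C was 6.97 points over DMRs without a DMC and −22.4 points over those with one. An unadjusted two-sided exact permutation p under 0.05 for T+WSD against T was found in 25 DMRs, 19 of the same sign and 6 of the opposite sign, where 7.76% of all tiles had an unadjusted limma p under 0.05 for that contrast. On the other scales of correlation the sign was the same in 52 of 69 and in 7 of 13 DMRs.

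**Figure D5:**
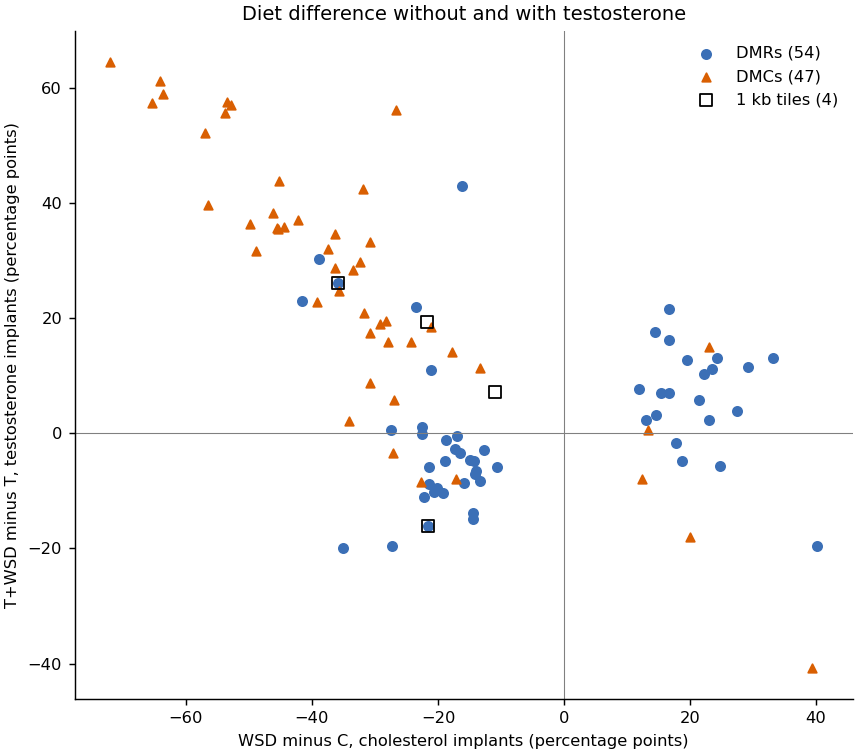
Diet difference in animals with cholesterol implants (WSD minus C, horizontal) against that in animals with testosterone implants (T+WSD minus T, vertical), in percentage points, for the 54 DMRs, 47 DMCs and 4 tiles called on the horizontal axis. Most DMCs lie in the upper left, lower in WSD than C and higher in T+WSD than T, and most DMRs lie in the quadrants of equal sign.

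Less selected sets gave intermediate shares. Among the 2278 tiles with an unadjusted p under 0.05 and a difference over 10 points, T+WSD minus T had the same sign in 66.6%, with 68.9% of the 777 higher and 65.4% of the 1501 lower tiles. The median difference of T+WSD from T along that direction was 2.99 points. Among the 23846 CpGs chosen in the same way the sign was the same in 59.8%. The share was 63.0% for those from 20% to 80%, where all CpGs gave 55.3%, and 53.1% from 80% to 95%, where all gave 51.8%. By density it was 60.5% at 0 to 4 neighbours (52.7% of all), 59.4% at 5 to 14 (52.2%), 57.2% at 15 to 29 (51.1%) and 51.7% at 30 or more (50.8%). This last class had only 176 CpGs in this set, before those with a difference of 0 were left out.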

How the data were processed

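Methylation was measured by RRBS in omental white adipose tissue. The authors trimmed reads with Trim Galore 0.4.2, aligned them to rheMac8 with Bismark 0.16.1 and deposited percent methylation per CpG and animal, kept where coverage was at least 10 reads in at least 4 animals of each group. A percent value from few reads carries more counting error, and the depth behind each value is unknown. Missing values were left missing.

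Rates were transformed as the arcsine of the square root and fitted with limma 3.58.1 (R 4.3.3) over all 4 groups, with Benjamini-Hochberg adjustment over all CpGs. DMRs followed comb-p, written again in Python 3.11.15: autocorrelation in steps of 50 bp, Stouffer-Liptak combination, seeds at an adjusted p under 0.05, joining within 300 bp, at least 2 CpGs. Whether its scale of correlation is that of the study's software was not known. Values with 1 number per animal had a two-sided exact permutation test on all 924 splits, whose smallest p is 0.00216. Nothing says that biopsies were repeated, and each animal is 1 replicate.

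Regions described were the 5 largest gains and 7 largest losses among DMRs with at least 3 CpGs and no overlap between C and WSD, together with the 4 largest gained and lost DMCs outside DMRs and every tile. One further region on chromosome 19 was named after its values were seen. The comparison, classes and rules were chosen with earlier results of these data known. Alternatives covered the transformation, animals, filters, thresholds and windows. Promoter gene lists were not analysed here.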

Additional observations from a re-analysis of the deposited data

Results flagged for a closer look

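Of 50 groups of 6 values examined for an animal far from the others, 5 had one, where chance gives about 2.5. C 1 was high in 3 classes. Its mean was 1.29% at CpGs under 5% (next C animal 1.08%), 15.1% at CpGs with 15 to 29 neighbours (next 14.6%) and 13.2% at CpGs with 30 or more (next 11.8%). WSD 22 was low at CpGs with 0 to 4 neighbours, with 66.4% against 67.7% in the next WSD animal. In the region on chromosome 3 from 57838568, WSD 24 stood at 60.95%, while the next WSD animal had 45.4%. The diet effect differed between implant types by the interaction term at 40 of the 47 DMCs, a contrast that places the animals on the same sides as the number series.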

How the results depend on the processing

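No paired analysis was possible because C and WSD animals share no replicate number. The cause of the changes listed here was not tested. DMCs numbered 77 at an adjusted p under 0.1. DMRs numbered 30 with only C and WSD in the fit, 21 with CpGs of a mean level from 5% to 95% and 13 with autocorrelation of normal scores, where 53.8% had the same sign under testosterone. Tiles numbered 1 with only C and WSD in the fit and 1 with at least 5 CpGs. Named regions kept their direction when each animal was left out in turn, which their lack of overlap between C and WSD fixes in advance. They also kept it over CpGs measured in all animals, where a region had any, and no other setting was run on them. On chromosome 13 from 87551731, CpGs measured in all animals gave −29.7 points. Leaving out each animal in turn gave 34 to 66 DMCs, 34 to 66 DMRs, 2 to 9 tiles and 0 to 1 level classes that passed. The share of CpGs from 5% to 95% differed by 0.909 to 1.47 points (exact permutation p from 0.0130 to 0.0974) and scatter by −0.246 to 0.542 points. CpGs from 5% to 20% gave −0.0638 to 0.672 points, 5 to 14 neighbours −0.254 to 0.0579, and 30 or more −0.0249 to 0.878. By chromosome the lowest and highest differences were −0.318 and 0.0255 (3), −0.264 and 0.0413 (4), −0.294 and 0.0129 (5), −0.2998 and 0.0439 (6), −0.249 and 0.0810 (7), −0.367 and 0.00225 (15), −0.226 and 0.0995 (18), −0.224 and 0.179 (19), and −0.774 and 0.167 (X). Leaving out T or T+WSD animals gave 58.4% to 60.8% of CpGs with the same sign. Depth per CpG is unknown, so no result could be weighed by its reads.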
